A study of Mus musculus with 22 samples.

Results

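The genes described here encode the ephrins and their Eph receptors, and the semaphorins with their plexin and neuropilin receptors. They were chosen by name and level: an ephrin (Efna or Efnb), Eph (Epha or Ephb), semaphorin (Sema3 to Sema7), plexin (Plxn) or neuropilin (Nrp) symbol with a mean of at least 1 TPM (a transcript level per length, scaled to a fixed total in each library) over all 22 libraries. Of 53 symbols that matched, 33 reached that level, out of 54514 entries in the table. They are 6 ephrin ligands, 6 Eph receptors, 13 semaphorins and 8 plexins or neuropilins. Sema6a at 1.28 TPM and Plxnd1 at 1.63 TPM lay just inside the limit, and Efna2 at 0.587 and Ephb6 at 0.549 TPM just outside. The 20 below it were Efna2, Efnb3, Epha3, Epha5, Epha6, Epha7, Epha8, Epha10, Ephb1, Ephb6, Sema3d, Sema3g, Sema4f, Sema5a, Sema5b, Sema6d, Sema7a, Plxna4, Plxnb3 and Plxnc1.

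RNA was sequenced from mpkCCD cells, an immortalised mouse line of cortical collecting duct origin (the secondary clone mpkCCDc11-38), kept on transwells. Wild-type (WT) cells were left without dDAVP (3 libraries, called vehicle here after the growth protocol) or received dDAVP (3 libraries). dDAVP, or desmopressin, is an agonist of the vasopressin V2 receptor, which acts through cyclic AMP and induces the water channel aquaporin-2. 4 GFP reporter lines, named C1, C11, C43 and C50, were all given dDAVP and then divided by GFP into a negative and a positive fraction, each with 2 libraries per line, so every reporter library carries the reporter and the treatment. The labels do not say which dDAVP dose or duration each library had, and give the WT cells no sort. C1, C11, C43 and C50 are taken here as 1 clone each, and a difference between them is a difference between these clones.

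Ephrins are ligands held on the cell membrane, by a lipid anchor in the A class and by a transmembrane segment in the B class. They bind Eph receptor tyrosine kinases on a neighbouring cell, and both cells can receive a signal. Semaphorins signal through plexins, whose intracellular part acts on small GTPases. The secreted class 3 semaphorins mostly need a neuropilin as co-receptor, while classes 4 and 6 are transmembrane proteins. In epithelia both systems act on cell contacts, on the actin cytoskeleton and on branching.

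Promoter sequence was examined because dDAVP acts through cyclic AMP, whose response element is TGACGTCA. RefSeq promoter entries (GRCm38.p6) were found for 29 of the 33 genes, with 41 windows of the 250 bases before a gene start. The full element, searched on both strands, was in 1 of the 41 windows (2.44%), that of Epha2, against 1.55% of all 32851 windows. Its shorter form TGACG, which the full element contains, was in 5 of 41 windows (12.2%; Efnb1, Efnb2, Epha2, Epha4 and Ephb3) against 17.77% of all windows. The AP-1 type motif TGANTCA was in 3 of 41 (7.32%; Sema4c, Sema4d and Sema6b) against 6.75%. These are matches of letters, and a window without one says only that the letters are not in it. The Epha2 window is shown for its match, which is in capitals, together with the windows of Ephb4, Sema3e and Sema6c, the genes that passed the test in both main comparisons below. The last 3 hold none of the 3 motifs and so have no capitals. All are on the plus strand and are written 5′ to 3′, from chr4:141300971-141301220 (Epha2), chr5:137349859-137350108 (Ephb4), chr5:14025026-14025275 (Sema3e) and chr3:95160170-95160419 (Sema6c).
Epha2: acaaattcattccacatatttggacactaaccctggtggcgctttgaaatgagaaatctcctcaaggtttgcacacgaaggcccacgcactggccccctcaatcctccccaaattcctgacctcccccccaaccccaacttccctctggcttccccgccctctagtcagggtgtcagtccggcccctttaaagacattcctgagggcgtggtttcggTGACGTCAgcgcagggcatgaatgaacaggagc
Ephb4: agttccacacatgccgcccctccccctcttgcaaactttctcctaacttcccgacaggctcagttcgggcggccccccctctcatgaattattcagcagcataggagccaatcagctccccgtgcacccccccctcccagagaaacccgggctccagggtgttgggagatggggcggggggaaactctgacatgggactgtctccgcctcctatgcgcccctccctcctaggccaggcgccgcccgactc
Sema3e: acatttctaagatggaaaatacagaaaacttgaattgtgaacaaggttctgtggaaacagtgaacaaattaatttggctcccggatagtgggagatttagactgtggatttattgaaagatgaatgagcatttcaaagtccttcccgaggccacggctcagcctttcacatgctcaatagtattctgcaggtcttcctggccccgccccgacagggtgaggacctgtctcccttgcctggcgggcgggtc
Sema6c: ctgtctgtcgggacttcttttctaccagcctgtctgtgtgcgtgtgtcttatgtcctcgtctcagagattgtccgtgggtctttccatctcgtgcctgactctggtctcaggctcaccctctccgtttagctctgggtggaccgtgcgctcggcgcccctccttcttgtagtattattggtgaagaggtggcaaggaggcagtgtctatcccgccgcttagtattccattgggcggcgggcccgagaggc

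The libraries carried the marks of their labels. Aqp2 lay at 64.1 to 74.9 TPM in WT vehicle and 2759 to 3025 TPM in WT dDAVP, and the GFP transcript at 5.31 to 17.6 TPM in the GFP-negative and 1065 to 1567 TPM in the GFP-positive libraries. Of 12 collecting duct markers, 11 were at 42.2 TPM or more in every library, and Aqp3 lay at 0.15 to 4.13 TPM. Summed markers reached at most 4.64 TPM for endothelium, 1.88 for fibroblasts, 4.32 for neurons, 9.36 for intercalated cells and 16.2 for proximal tubule. The leukocyte list summed to 11.96 to 31.9 TPM. C50 GFP-negative replicate 1 stood apart: it was the lowest of the 22 libraries for 19 of the 33 genes (57.6%) and for 33.5% of all tested genes. Its 33 genes summed to 733 TPM, against 1135 to 1635 TPM in the other 21 libraries, and its Cdh1 was at 125 TPM against 377 to 632 TPM. Its ribosomal protein genes held 7.92% of the TPM, against 3.71 to 5.91% in the other 21, and their part in the results was not tested. The main counts are given with and without it, as are the differences of called genes that it moved most. TPM keep no read depth, so the depth of the libraries is unknown. Lower TPM in a bulk sample cannot be told apart from fewer cells of a type or less RNA per cell.

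In GENCODE M21 (GRCm38), Plxnb2 spans chr15:89155549-89180788, Sema3c chr5:17574281-17730268, Efna1 chr3:89271733-89281142, Nrp2 chr1:62703285-62818695, Nrp1 chr8:128358604-128503363 and Sema4g chr19:44989101-45003397. TPM counts each whole gene, so no value belongs to an exon or UTR. The receptor Plxnb2 was by far the most abundant of the 33, at a mean of 428 TPM over the 22 libraries and between 250 and 559 TPM in each. Plxnb2 is a B-type plexin, a receptor for class 4 semaphorins. The other plexins and neuropilins were at 1.63 (Plxnd1) to 21.2 TPM (Nrp1). Among the semaphorins the secreted Sema3c (161 TPM) and Sema3f (70.4 TPM) led, followed by the transmembrane Sema4d (42.4 TPM). Efna1 was the most abundant ephrin, at 167 TPM and 102 to 197 TPM by library, ahead of Efnb2 (34.3) and Efna4 (31.8). Its receptor Epha2 was the most abundant Eph, at 64.9 TPM (22.1 to 88.5 by library), ahead of Ephb4 (25.6), the receptor of ephrin-B2. In TPM per group, the widest spread over the 10 groups was that of Nrp2, with means from 0.36 TPM in C1 GFP-positive to 7.28 TPM in C1 GFP-negative cells, a ratio of 20.2. Sema4g (10.7-fold), Sema6a (9.13-fold), Plxna2 (5.86-fold), Sema6c (5.29-fold) and Sema4c (5.10-fold) came next. The ratio without C50 GFP-negative replicate 1 was 3.82 for Plxna2, below those of Sema6c, Sema4c, Ephb4 and Plxnd1, and 13.4 for Sema6a. Efnb1 (1.62-fold) and Plxnb2 (1.72-fold) varied least, and without that library Efnb1 (1.39-fold) and Epha2 (1.5-fold) did.

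**Figure D1:**
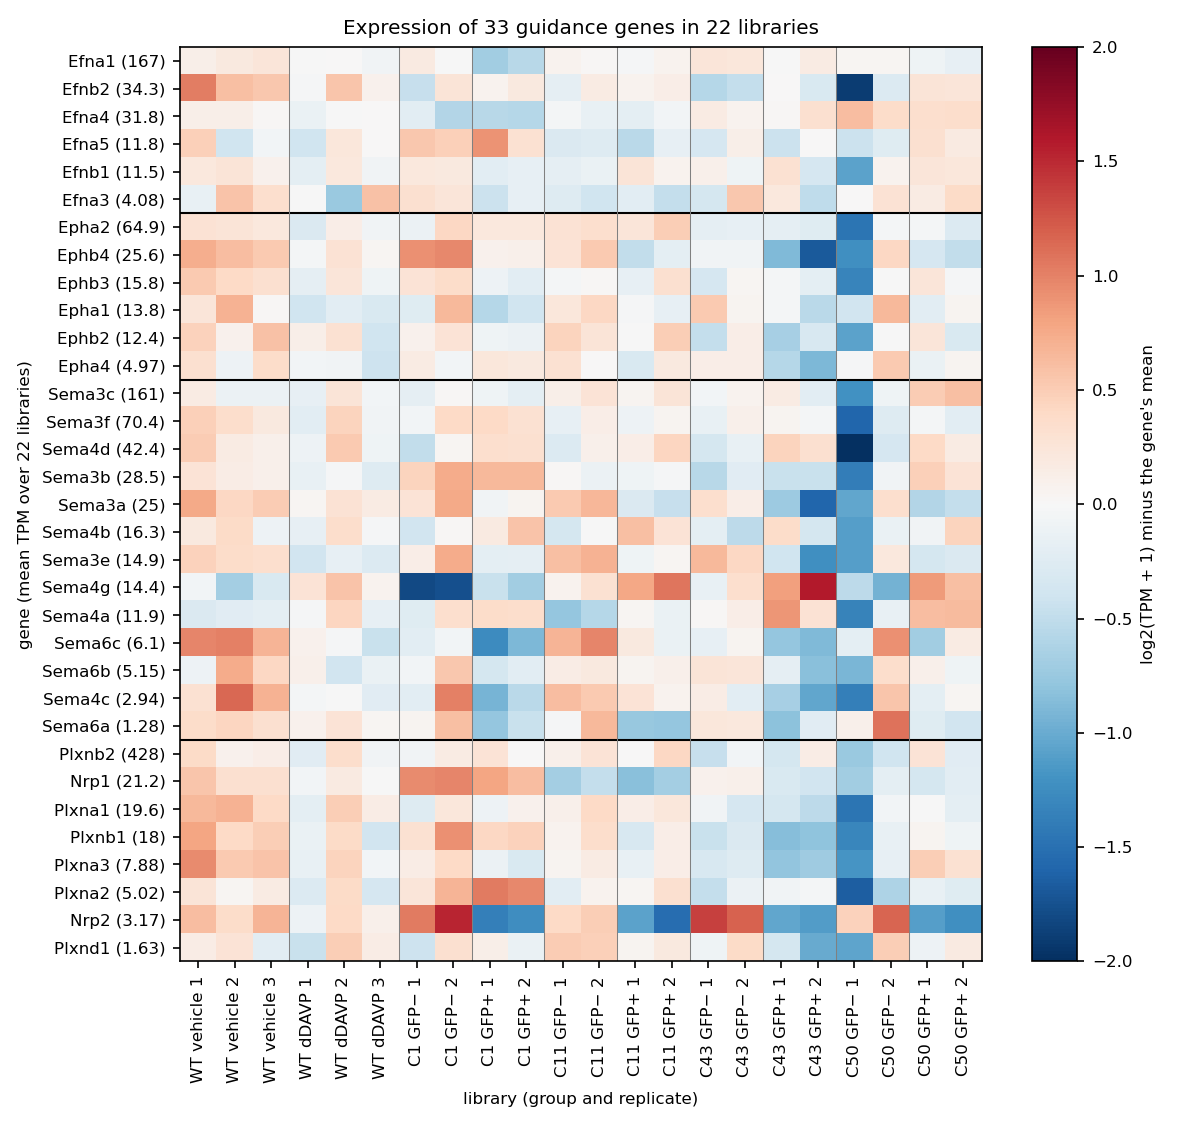
Levels of the 33 genes in the 22 libraries. Rows are genes grouped by role, columns are libraries by group, and the colour gives each log2(TPM + 1) minus the gene's mean over the libraries. The GFP-positive columns are low for Nrp2 and Sema6a, and C50 GFP-negative replicate 1 is low for most rows.

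The first comparison asked how the vasopressin agonist changed these genes in unsorted WT cells. With dDAVP, 3 of the 33 genes fell and 0 rose: the semaphorins Sema6c and Sema3e and the receptor Ephb4. That is 9.09% of them, near the 8.88% of all 13494 tested genes that were called (2.37% higher and 6.51% lower), at an adjusted p under 0.05 by limma. The ephrin ligands and the plexins and neuropilins had 0 called of 6 and 0 of 8 by limma. At an unadjusted p under 0.05 in limma, 2 of 6 ephrins and 4 of 8 plexins or neuropilins were counted, and 16 of all 33 genes. The share of all tested genes at that unadjusted threshold is not given here. These counts therefore cannot be set against a background or read as particular to the members. Means were lower with dDAVP for 30 of 33 genes, with a median difference of -0.32 in log2(TPM + 1), while all tested genes had a median of -0.16. Under 3 other scalings, which put the median of all genes near 0, 24 or 25 of 33 were lower and the members' median was -0.12 to -0.19. The proximal tubule markers summed to 15.98, 10.51 and 10.34 TPM without and 5.17, 8.50 and 6.62 TPM with dDAVP, without overlap. Nearly all of it was Lrp2, the other 4 of the 5 markers being at most 0.69 TPM in any library. Mitochondrial genes held 1.17 to 1.28% of the TPM without and 1.29 to 1.51% with dDAVP. The part of either in the result was not tested.

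Sema6c is a transmembrane semaphorin of class 6, whose relatives bind A-type plexins. It lay at 11.58, 11.97 and 9.31 TPM without dDAVP and at 5.82, 5.32 and 3.70 TPM with it. The groups did not overlap, and it fell by 1.02 ± 0.18 (SE) in log2(TPM + 1) (adjusted p = 0.0197). Sema3e is a secreted semaphorin that binds plexin D1 without a neuropilin. It lay at 19.7, 18.4 and 17.9 TPM against 10.5, 12.4 and 11.4 TPM. It fell by 0.66 ± 0.10 (adjusted p = 0.0125), again without overlap, while its receptor Plxnd1 was at 1.68 ± 0.445 and 1.73 ± 0.842 TPM (SD, n = 3 each). Ephb4 lay at 39.4, 36.1 and 34.1 TPM without and 22.7, 28.9 and 24.0 TPM with dDAVP. It fell by 0.52 ± 0.11 (adjusted p = 0.0351), and its ligand Efnb2 was at 54.1 ± 10.5 TPM without and 37.6 ± 8.54 TPM with dDAVP (adjusted p = 0.112).

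Sema4g, a transmembrane semaphorin of class 4, went the other way in level. It was at 11.8, 7.25 and 9.64 TPM without and 15.0, 18.7 and 12.9 TPM with dDAVP, without overlap, a difference of 0.65 ± 0.20 that did not pass (adjusted p = 0.0758). It passed in 3 of 16 alternatives, all of them other scalings, and its adjusted p ran from 0.0168 to 0.2 over the 16. Groups did not overlap for 17 of the 33 genes, 15 lower and 2 higher (Sema4g and Sema4a). Of all tested genes 35.8% had groups that did not overlap. The most abundant members, Plxnb2 (484 ± 56.2 and 431 ± 91.6 TPM without and with dDAVP) and Sema3c (155 ± 18.5 and 159 ± 25.1 TPM), overlapped. Over 16 alternatives Sema6c fell short of the threshold in 6, Sema3e in 5 and Ephb4 in 11, with adjusted p of up to 0.0743, 0.101 and 0.148. The calls rest on few libraries: 0 were left without vehicle replicate 2, vehicle replicate 3 or dDAVP replicate 3. There was 1 without vehicle replicate 1, and 11, all lower, without dDAVP replicate 2. The share of all genes called in these fits is not given here, so the counts cannot be read as particular to the members. Without dDAVP replicate 2 the median was -0.43 for the members and -0.19 for all genes. Without any other single library it was -0.26 to -0.34 and -0.12 to -0.17. With 3 other scalings 2 or 3 genes were called, 1 of them higher (Sema4g), and of all genes called 54.1 to 63.7% were then higher, against 26.7% in TPM as deposited.

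**Figure D2:**
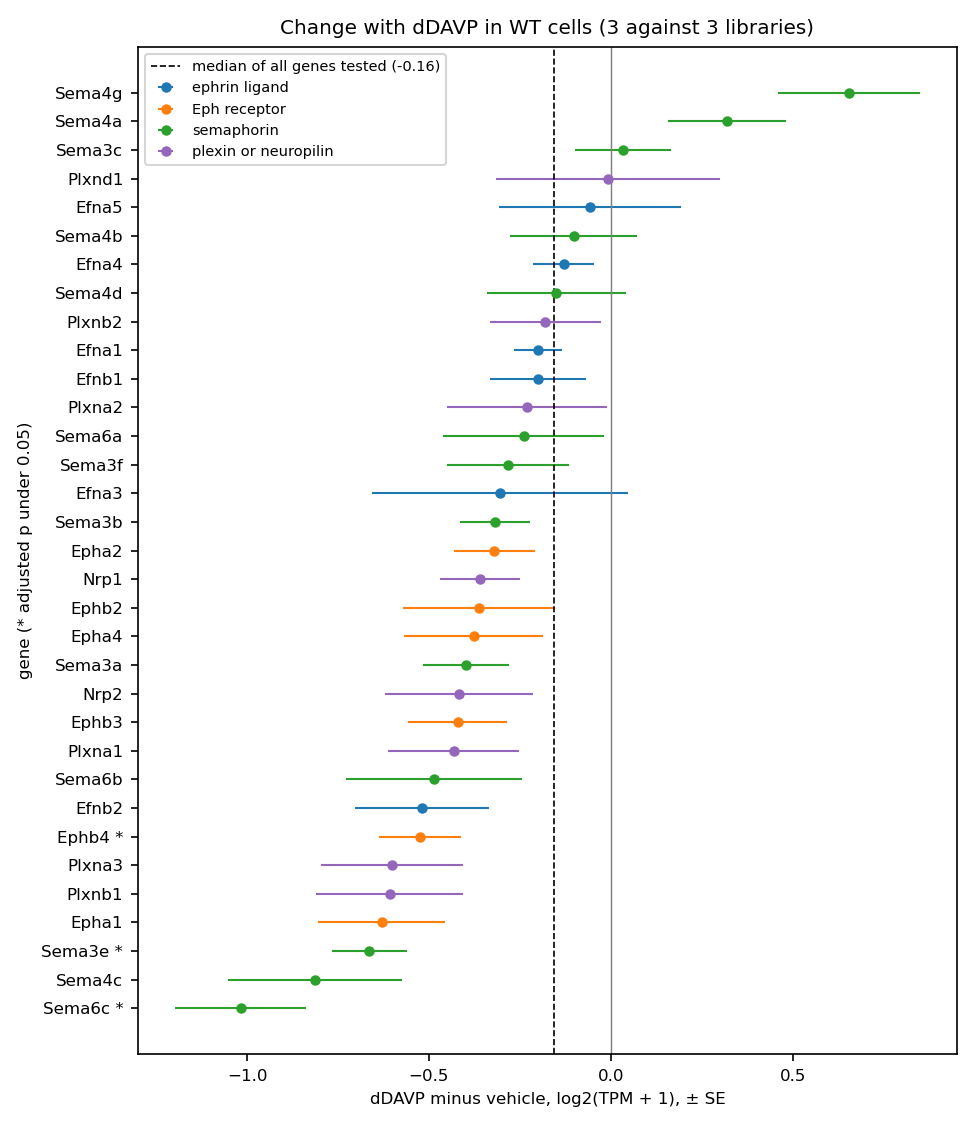
Change with dDAVP in WT cells. Each row is a gene, the point is dDAVP minus vehicle in log2(TPM + 1) with its SE, from 3 libraries a group. Most points lie left of 0, and Sema6c, Sema3e and Ephb4 passed the adjusted threshold.

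The second comparison set the GFP-positive cells against the GFP-negative cells of the same clones, all of them treated with dDAVP. In GFP-positive cells 4 of the 5 class 4 semaphorins rose (Sema4a, Sema4b, Sema4d and Sema4g), and so did the receptor Plxna2. The neuropilin Nrp2, the class 6 semaphorins Sema6a and Sema6c, the class 3 semaphorins Sema3a and Sema3e, the receptors Ephb4 and Epha1 and the ligand Efna1 fell. These are 13 of 33 genes (39.4%), 5 higher and 8 lower. Of 13113 genes tested by limma, 35.3% were called (12.1% higher and 23.2% lower), so the members' share was near the background. The median difference of the 33 was -0.05 and that of all genes -0.06. The medians were -0.19 and -0.11 without C50 GFP-negative replicate 1, and 0.03 to 0.10 and 0.01 to 0.02 with 3 other scalings. By role, 8 of 13 semaphorins, 2 of 8 plexins or neuropilins, 2 of 6 Eph receptors and 1 of 6 ephrins were called. The grouping by class was made after the values were seen and is a description.

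The 4 class 4 semaphorins were higher in the GFP-positive library in 8 of 8 pairs of libraries with the same clone and replicate number, as was Plxna2. The labels do not say whether libraries with the same number were prepared together. In all, 8 of the 33 genes were called with the same sign in 8 of 8 pairs, and 22.9% of all genes were. The 8 include Nrp2 and Sema6a, which passed the filter on low values through their GFP-negative libraries. Sema4g ran from 2.79 to 15.8 TPM (median 9.55) in the 8 GFP-negative and from 7.18 to 38.7 TPM (median 21.9) in the 8 GFP-positive libraries. The ranges overlap because the clones differ in level, and within each clone both GFP-positive libraries were above both GFP-negative ones. The difference was 1.13 ± 0.14 (SE) in log2(TPM + 1) (adjusted p = 2.3e-05), and it passed in 31 of 31 alternatives. Sema4d, a ligand of plexin B1 that can be shed from the membrane, ran from 7.96 to 43.3 TPM (median 32.2) in GFP-negative and 43.9 to 54.8 TPM (median 50.6) in GFP-positive cells. The 2 ranges did not overlap, and Sema4d rose by 0.77 ± 0.23 (adjusted p = 0.0160), a call lost in 2 of 31 alternatives (adjusted p of up to 0.0651). Sema4a ran from 3.84 to 14.3 TPM (median 9.71) and from 10.2 to 21.4 TPM (median 14.6), overlapping, with a rise of 0.70 ± 0.18 (adjusted p = 0.00754). Sema4b ran from 6.81 to 15.98 TPM (median 12.9) and from 12.1 to 24.5 TPM (median 19.9), with a rise of 0.59 ± 0.16 (adjusted p = 0.00964), lost in 1 of 31 alternatives (0.0551). The fifth gene of the class, Sema4c, was lower in 7 of 8 pairs, at a difference of -0.51 ± 0.28 that did not pass (adjusted p = 0.181).

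Nrp2, a co-receptor for class 3 semaphorins and for VEGF-C, showed the widest gap. It lay between 3.45 and 8.68 TPM (median 6.18) in GFP-negative and between 0.17 and 0.63 TPM (median 0.495) in GFP-positive cells. The ranges were far apart, with every GFP-positive library under 1 TPM. It fell by 2.17 ± 0.16 (adjusted p = 1.51e-07), in 8 of 8 pairs, and passed in 30 of 30 alternatives. In this comparison it passed the filter on low values through its GFP-negative libraries, and a gene kept in that way is likely to differ. The call, the pairs and the alternatives thus add no support to the values of Nrp2. In WT cells it was at 3.94 ± 0.548 TPM without and 2.72 ± 0.667 TPM with dDAVP (SD, n = 3 each; adjusted p = 0.207). The other neuropilin, Nrp1, which serves the same ligand class, was lower in 7 of 8 pairs by 0.18 ± 0.10 (adjusted p = 0.180). The difference between the changes of the 2 neuropilins was not tested.

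Sema6a, a transmembrane semaphorin that signals through A-type plexins, was low in all libraries. It lay at 1.11 to 3.55 TPM (median 1.51) in GFP-negative and 0.21 to 0.84 TPM (median 0.425) in GFP-positive cells, without overlap. It fell by 0.91 ± 0.18 (adjusted p = 9.79e-04). Sema6a and Nrp2 were under 1 TPM in every GFP-positive library and passed the filter on low values through their GFP-negative libraries. A gene kept in that way is likely to differ, so their calls add no support to the counts. Both also passed with no filter. Sema6c ran from 4.57 to 11.6 TPM (median 5.43) and from 1.70 to 6.39 TPM (median 2.87), and fell by 0.78 ± 0.16 (adjusted p = 0.00177). Sema6c was lower in 8 of 8 pairs and passed in 31 of 31 alternatives. Sema6a was also lower in 8 of 8 pairs and passed in 30 of 30, which for the reason above adds no support. Sema3a, a repellent cue that acts through Nrp1 and A-type plexins, ran from 10.8 to 39.7 TPM (median 29.5) and from 7.03 to 24.2 TPM (median 16.5). It fell by 0.77 ± 0.21 (adjusted p = 0.00977) and was lower in 7 of 8 pairs, a call lost in 2 of 31 alternatives (adjusted p of up to 0.0819). The exception was C50 replicate 1, whose GFP-negative library is the one that stood apart. Sema3e fell by 0.63 ± 0.22 (adjusted p = 0.0356), with C50 at 0.13 in the opposite direction. It had the highest adjusted p of the 13 and fell short of the threshold in 17 of 31 alternatives, among them the removal of any of 12 single libraries.

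**Figure D3:**
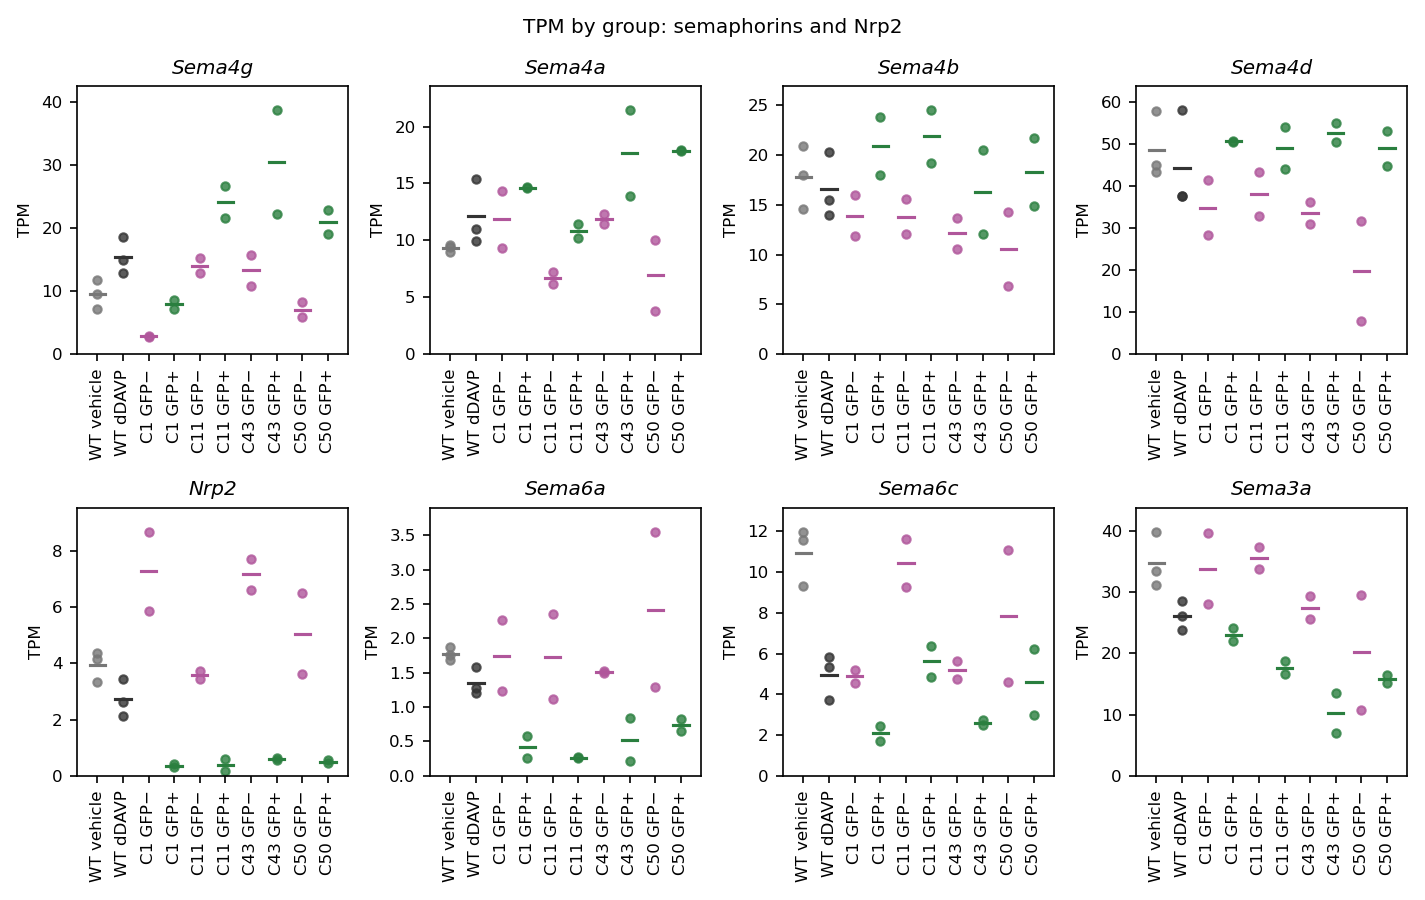
TPM of 7 semaphorins and Nrp2 in all 10 groups. Points are libraries and lines are group means. GFP-positive groups of each clone lie above the GFP-negative ones for Sema4g, Sema4a, Sema4b and Sema4d, and below them for Nrp2, Sema6a, Sema6c and Sema3a.

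Among the receptors, Plxna2, an A-type plexin, ran from 0.79 to 8.02 TPM (median 4.03) in GFP-negative and from 3.74 to 10.6 TPM (median 4.63) in GFP-positive cells. The ranges overlap widely, but its mean was higher in the GFP-positive fraction of each clone, and it rose by 0.49 ± 0.16 over the 4 clones (adjusted p = 0.0245). That call was lost in 7 of 31 alternatives, among them the removal of C1 GFP-negative replicate 1, C50 GFP-positive replicate 1 or C50 GFP-positive replicate 2, with an adjusted p of up to 0.104, the value without clone C1. Ephb4 ran from 9.40 to 46.2 TPM (median 29.9) and from 6.56 to 25.1 TPM (median 17.2). It fell by 0.70 ± 0.22 (adjusted p = 0.0191), in 7 of 8 pairs, C50 replicate 1 again excepted. That call was lost in 4 of 31 alternatives, among them the removal of C1, C11 or C43, with an adjusted p of up to 0.135. Epha1 fell from a mean of 16.4 ± 4.45 to 11.3 ± 1.99 TPM (SD, n = 8 each), by 0.47 ± 0.16 (adjusted p = 0.0355). That call was lost in 13 of 31 alternatives, among them the removal of any of 9 single libraries, with an adjusted p of up to 0.128. The abundant pair Efna1 and Epha2 differed little: Efna1 fell by 0.26 ± 0.08 (adjusted p = 0.0245) from 178 ± 12.7 to 151 ± 29.0 TPM, and Epha2 showed 0.17 ± 0.17 (adjusted p = 0.478). The Efna1 call was lost in 11 of 31 alternatives, among them 3 other scalings and the removal of any of 3 libraries of C1, with an adjusted p of up to 0.19. Plxnb2, the most abundant receptor, showed 0.22 ± 0.12 (adjusted p = 0.174), and passed with 2 of 3 other scalings (0.0402 and 0.0121). The remaining ephrins did not pass, the furthest from 0 being Efnb2 at 0.51 ± 0.22 (adjusted p = 0.0843), which passed with each of 3 other scalings (0.0153, 0.00756 and 0.00713).

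Without C50 GFP-negative replicate 1, 17 of 33 genes were called, 6 higher and 11 lower, against 46.0% of all genes. All 13 of the calls above were among them, and the added ones were Efnb2 (0.29, adjusted p = 0.0334), Nrp1 (-0.25, 0.00666), Sema4c (-0.76, 0.00354) and Sema6b (-0.43, 0.0151). Without that library the differences were 0.53 for Sema4d and for Sema4a, 0.48 for Sema4b, 0.35 for Plxna2, -0.94 for Sema3a, -0.92 for Ephb4, -0.82 for Sema3e and -0.59 for Epha1. The signs of the 33 differences were 17 lower and 16 higher in TPM as deposited, and 14 lower and 19 higher with each of 3 other scalings. Those scalings gave 15 or 16 called genes, 8 or 9 of them higher, and 50.5 to 51.9% of all called genes higher in place of 34.2%. Leukocyte markers summed to 17.4 to 31.9 TPM in GFP-negative and 11.96 to 22.7 TPM in GFP-positive libraries. In each clone both GFP-positive libraries were below both GFP-negative ones. Of these markers, Csf1r and Cd68 alone passed 2 TPM. Of the other 6 on that list, Ptprc reached at most 1.87 TPM, and the median over libraries was 0 for Cd79a, Itgam, Laptm5 and Tyrobp. Mitochondrial genes held 1.07 to 1.57% of the TPM in GFP-negative and 1.23 to 1.91% in GFP-positive libraries, higher in both GFP-positive libraries of C11 and of C43 than in the GFP-negative ones of the same clone. The part of these markers and genes in the result was not tested.

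The dDAVP and GFP comparisons use different libraries and share no controls. The 3 genes that fell with dDAVP also fell in GFP-positive cells, which is 3 of 3 dDAVP calls and 3 of 13 GFP calls. Over all genes tested in both, 401 of the 873 that fell with dDAVP also fell between the fractions, 45.9% of those and 13.2% of the 3034 that fell between the fractions. With 3 genes, nothing particular to the members can be read from this. Sema6c differed by -1.02 with dDAVP and -0.78 between fractions, Sema3e by -0.66 and -0.63, and Ephb4 by -0.52 and -0.70. Nrp2 (-0.42 and -2.17) and Sema4g (0.65 and 1.13) kept their sign, but passed in the GFP comparison alone. Plxna2 (-0.23 and 0.49), Sema4b (-0.10 and 0.59) and Sema4d (-0.15 and 0.77) had opposite signs in TPM as deposited, with a dDAVP difference that did not pass. With 3 other scalings the dDAVP difference of Sema4b was 0.06 to 0.15, that of Sema4d -0.11 to 0.02 and that of Plxna2 -0.09 to 0.02. These pairs of values were not tested against each other.

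**Figure D4:**
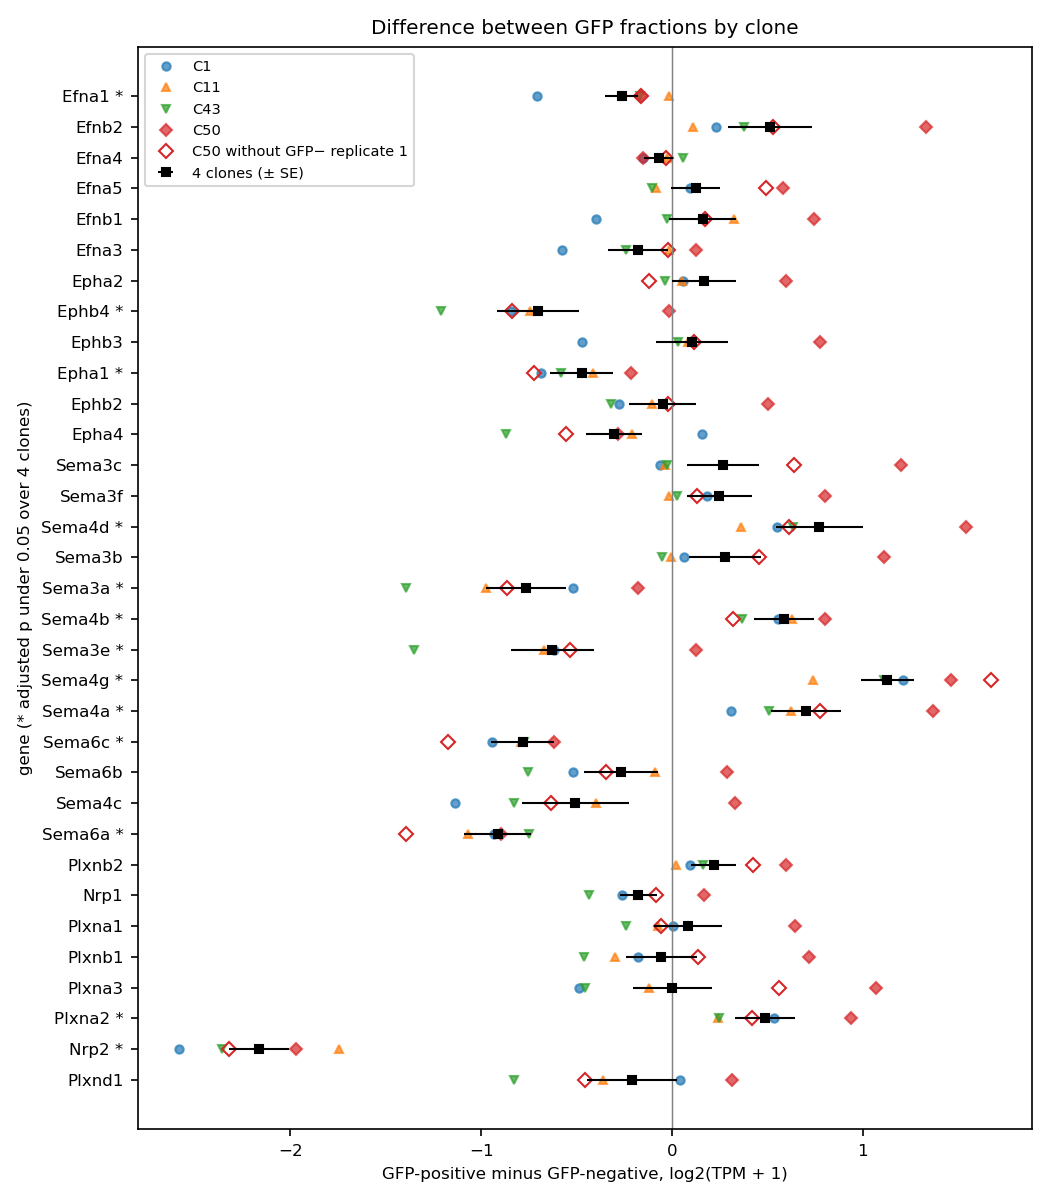
Difference between GFP-positive and GFP-negative cells in each clone. Rows are genes, the horizontal axis is the difference in log2(TPM + 1), coloured points are clones, black squares the 4 clones with SE, and open diamonds C50 without GFP-negative replicate 1. C50 lies to the right of the other clones for most genes, and less so without that library.

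Taken clone by clone, with 2 libraries per fraction and a spread shared over the 16 libraries, the GFP fractions differed for 3 genes in C1 and 1 in C11. They differed for 5 genes in C43 and for 9 in C50. Nrp2 was in all 4 sets, and its calls add no support to these counts for the reason given above. Its differences in the order C1, C11, C43, C50 were -2.59, -1.75, -2.36 and -1.97, each ± 0.28 (adjusted p = 2.59e-04, 0.00379, 2.62e-04 and 5.51e-04). Sema4g rose in C1 (1.21), C43 (1.11) and C50 (1.46), and was at 0.74 ± 0.27 in C11 (adjusted p = 0.132). In C1 the third call was Efna1, which fell by 0.71 ± 0.10 (adjusted p = 0.00115), from 188 and 165 TPM to 102 and 112 TPM. Both GFP-positive libraries of C1 were below every other library for this ephrin, and the other clones showed -0.17 in C43 and C50 and -0.02 in C11. C43 also had Epha4 (-0.87), an Eph receptor that binds ephrins of both classes, and Sema3a (-1.39) and Sema3e (-1.35) lower. Of all genes, 7.22% were called in C1 (2.31% higher and 4.91% lower), 7.94% in C11 (2.23% and 5.7%), 16.3% in C43 (4.29% and 12%) and 26.6% in C50 (12.8% and 13.8%). The C43 count rests on few libraries. It was lower without C43 GFP-negative replicate 1 or 2, C43 GFP-positive replicate 2, or either GFP-positive library of C1. The share of all genes called in those fits is not given, so the drop cannot be read as particular to the members. Leaving out 1 library of C43 at a time, the members' median in C43 ran from -0.13 to -0.33, against -0.24 with all libraries. That of all genes ran from -0.11 to -0.19, against -0.16. Leaving out C50 GFP-negative replicate 1 gave 5 in C1, 4 in C11 and 10 in C43, when 15.9%, 17.7% and 29.6% of all genes were called. Leaving out C50 GFP-negative replicate 2 gave members' medians of -0.18 in C1, -0.08 in C11 and -0.24 in C43, and -0.06, -0.12 and -0.16 for all genes.

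In C50, 8 genes rose in GFP-positive cells: Sema4d (1.54), Sema4g (1.46), Sema4a (1.37), Efnb2 (1.33), Sema3c (1.20), Sema3b (1.11), Plxna3 (1.07) and Plxna2 (0.94). The members' median there was 0.58 and that of all genes 0.09, but -0.02 and -0.09 when GFP-negative replicate 1 was left out. The intercalated cell markers summed to 2.11 and 3.27 TPM in the GFP-negative and to 8.17 and 9.36 TPM in the GFP-positive libraries of C50, the latter the 2 highest of all. Nearly all of that sum was Slc4a9, the other 5 of the 6 markers being at most 0.68 TPM in any library, and its part in the result was not tested. Sema3c, the most abundant semaphorin, was at 67.2 and 147 TPM in C50 GFP-negative and 223 and 237 TPM in C50 GFP-positive libraries, the latter the 2 highest of all 22. Without C50 GFP-negative replicate 1, 6 genes were called in C50 (23.7% of all genes): Sema3c (0.64, adjusted p = 0.0152) and Sema4g (1.67) higher, and Nrp2 (-2.32), Sema6a (-1.39), Sema6c (-1.17) and Ephb4 (-0.84) lower. The other 6 rises were no longer called. Sema4d was then at 0.61, Sema4a at 0.77, Efnb2 at 0.53, Sema3b at 0.45, Plxna3 at 0.56 and Plxna2 at 0.42 (adjusted p from 0.0562 to 0.265). Without C50 GFP-negative replicate 2, which leaves the library that stood apart as the lone one of its group, 23 were called, 22 of them higher, with 52.2% of all genes. Without C50 GFP-positive replicate 1 the members' median was 0.45, and without replicate 2 it was 0.65, while that of all genes was 0.08 in both.

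The fraction difference itself was compared between clones by an interaction term. Of the 33 genes 0 passed by limma, and 0.869% of all genes did. At an unadjusted p under 0.05 in limma, 3 did: Efna1 (adjusted p = 0.114), Plxna3 (adjusted p = 0.185) and Sema3c. The share of all genes at that unadjusted threshold is not given here, so these 3 cannot be set against a background. Plxna3 was at -0.49, -0.12 and -0.46 in C1, C11 and C43, and at 1.07 in C50 (0.56 without C50 GFP-negative replicate 1). Without C50 GFP-negative replicate 1, 1 gene passed, Efna1 (adjusted p = 0.0473). Without C50 GFP-negative replicate 2, 20 passed, when 38.6% of all genes did. The values per clone above are thus not shown to differ, in the set of all libraries.

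The third comparison asked how the 4 clones differed from each other, with both fractions of a clone weighted equally. Between the clones 10 of the 33 genes differed (30.3%), against 31.6% of all genes: the receptors Nrp1, Plxna2, Plxnb1 and Ephb4, the semaphorins Sema4g, Sema3b and Sema6c, and the ligands Efna1, Efna4 and Efna5. C1 was at one end for each of the 10, highest for 6 and lowest for 4. Set against the mean of the other clones, C1 was called for these 10, 6 higher and 4 lower, when 29.1% of all genes were called (14.9% higher and 14.2% lower). C11 and C43 each had 2 genes higher and 1 lower than the other clones, and C50 had 1 higher and 2 lower. The shares of all genes were 9.02% in C11 (5.67% higher and 3.36% lower), 11% in C43 (5.8% and 5.16%) and 11.8% in C50 (3.9% and 7.85%). The proximal tubule markers, nearly all Lrp2, summed to 0.94 to 4.02 TPM in C1 and to 4.30 TPM or more in every library of the other clones. Mitochondrial genes held 1.07 to 1.43% of the TPM in C11 and 1.45 to 1.91% in C43. The part of either in the clone differences was not tested. The counts above depend on the library that stood apart. When it was left out, C1 had 8 genes higher and 5 lower, C11 had 4 and 2, C43 had 2 and 9, and C50 had 1 and 1, with 40.1%, 16.3%, 27.2% and 13.6% of all genes called.

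Nrp1 was at 30.7 to 40.0 TPM in the 4 libraries of C1, 10.7 to 14.0 in C11, 14.8 to 21.2 in C43 and 11.8 to 17.1 in C50. C1 did not overlap the other clones, and exceeded their mean by 1.22 ± 0.10 (SE) in log2(TPM + 1) (adjusted p = 6.05e-06), while C11 was lower by 0.78 (adjusted p = 4.85e-04). Plxna2 was likewise high in C1, at 5.68 to 10.6 TPM, against 3.88 to 6.0 in C11, 3.04 to 4.47 in C43 and 0.79 to 4.09 in C50. It exceeded the other clones in C1 by 0.99 ± 0.18 (adjusted p = 0.00145), with a small overlap with C11. Plxnb1, the receptor of Sema4d, was at 20.99 to 32.7 TPM in C1, 13.3 to 21.8 in C11, 8.85 to 13.6 in C43 and 6.21 to 17.6 in C50, higher in C1 by 0.83 ± 0.19 (adjusted p = 0.00652). C1 thus held the highest mean of these 3 semaphorin receptors.

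Sema4g was lowest in C1. It was at 2.79 to 8.69 TPM in C1, 12.9 to 26.6 in C11, 10.9 to 38.7 in C43 and 5.87 to 22.9 in C50, and C1 was lower than the other clones by 1.57 ± 0.15 (adjusted p = 2.66e-05). C11 and C43 were higher, by 0.73 (adjusted p = 0.013) and 0.86 (adjusted p = 0.00454). Sema3b, a secreted semaphorin, was at 37.4 to 45.8 TPM in C1 and at 24.9 to 27.6 in C11, 18.1 to 23.1 in C43 and 9.77 to 38.1 in C50. It was higher in C1 by 0.84 ± 0.18 (adjusted p = 0.00496), with 1 library of C50 inside the range of C1. Ephb4 was at 24.9 to 46.2 TPM in C1, 16.2 to 34.0 in C11, 6.56 to 22.3 in C43 and 9.40 to 31.4 in C50. It was higher in C1 by 0.87 ± 0.24 (adjusted p = 0.0171). The range of Ephb4 in C50 is that of its GFP-negative libraries, at 9.40 and 31.4 TPM.

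The ephrins moved in different directions between the clones. Efna4 was lowest in C1 at 20.3 to 26.6 TPM and highest in C50 at 39.5 to 48.3 TPM, with 27.0 to 30.1 in C11 and 31.6 to 39.2 in C43. No 2 clones overlapped, and C1 was lower than the rest by 0.63 ± 0.09 (adjusted p = 3.37e-04) and C50 higher by 0.57 ± 0.09 (adjusted p = 0.00172). Efna5 was highest in C1, at 14.3 to 21.9 TPM against 7.52 to 14.4 TPM over the other clones, which it just overlapped, by 0.73 ± 0.14 (adjusted p = 0.00208). Efna1 was lowest in C1 (142 ± 41.2 TPM, SD, n = 4) and highest in C43 (185 ± 14.7 TPM). The low mean of C1 is that of its GFP-positive cells (107 TPM), while its GFP-negative cells were at 176 TPM, above those of C11 (171 TPM) and C50 (170 TPM). The count of 10 depends on the libraries and clones used: it was 1 without C1, 6 without C43 and 16 without C50, when 8.37%, 25.1% and 43.2% of all genes were called. It was 17 without C50 GFP-negative replicate 1 and 24 without C50 GFP-negative replicate 2, when 47.2% and 60.8% of all genes were. C50 exceeded the other clones by 0.51 for Efna4 without its GFP-negative replicate 1 (adjusted p = 0.005), and was then at -0.61 for Plxna2 (0.0145) and at -0.26 for Nrp1, which did not pass (0.0594).

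**Figure D5:**
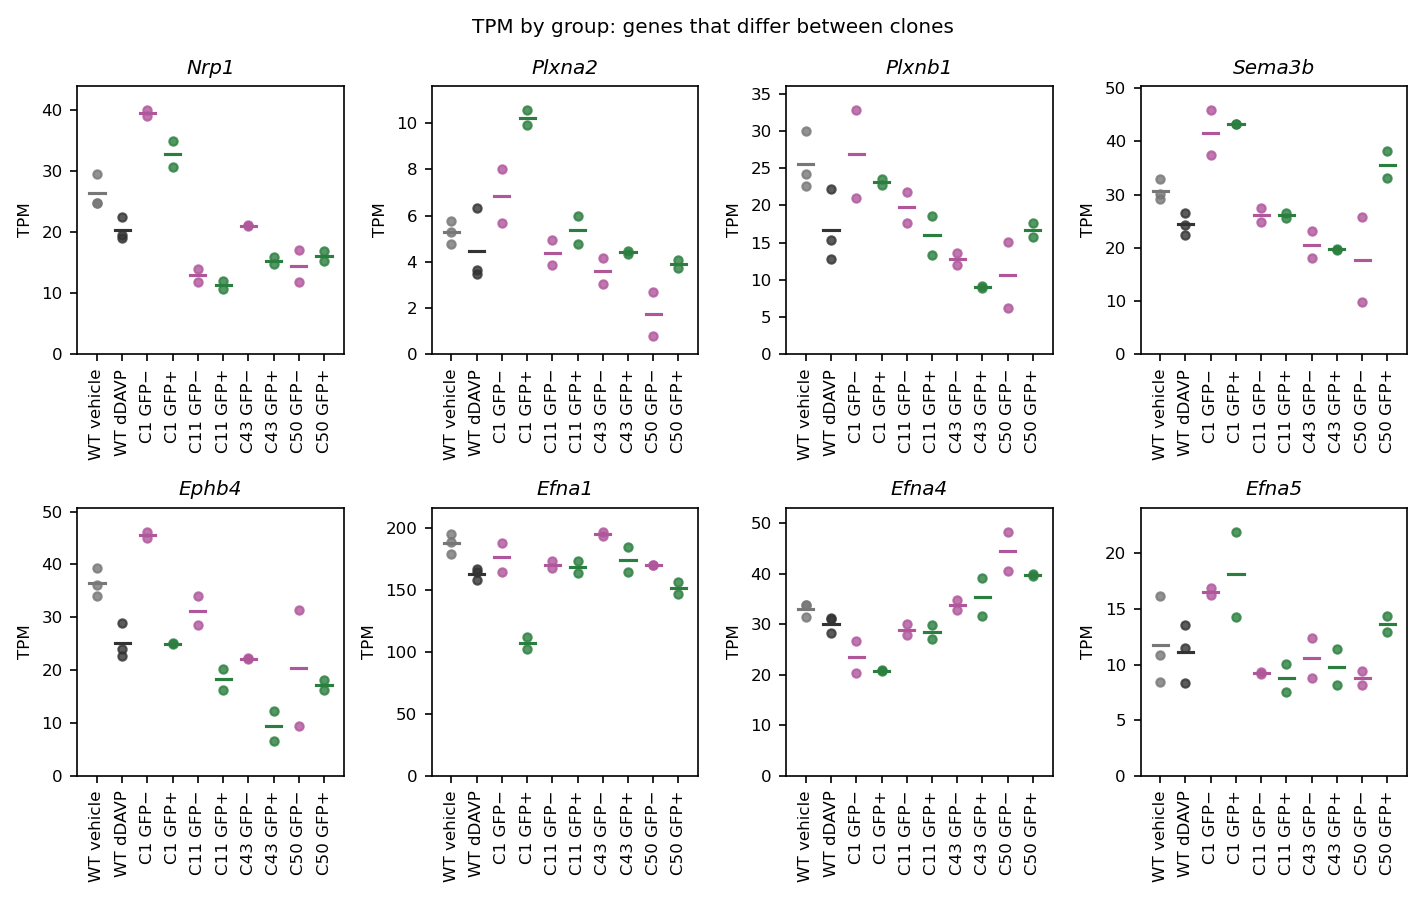
TPM of members that differed between clones, by clone and fraction. Points are libraries, with GFP-negative and GFP-positive cells in separate colours. Both WT groups are drawn in grey and black. C1 lies above the other clones for Nrp1 and below them for Efna4, and for Efna5 its lowest library meets the highest of C50.

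Partners and effectors of the 2 systems were taken from a list of 95 genes, of which 75 were tested. With dDAVP 4 fell and 0 rose (5.33% of those tested, under the 8.88% of all genes): Ngef, an exchange factor that binds EphA receptors, by 0.72 ± 0.17 (adjusted p = 0.0426), and by 0.41 to 0.45 the neuropilin ligand Vegfb, the Rac GTPase-activating protein Chn2 and the adaptor Pick1. Between the GFP fractions Ngef showed 0.20 ± 0.21 (adjusted p = 0.495). Between the GFP fractions 24 of 75 were called (32.0%), 8 higher and 16 lower, near the 35.3% of all genes (12.1% higher and 23.2% lower). The largest decreases were those of the Src-family kinase Fyn, from 8.87 ± 2.07 to 2.65 ± 0.607 TPM (SD, n = 8 each; -1.43 ± 0.12, adjusted p = 7.43e-07), and of Chn1, from 14.2 ± 3.92 to 4.72 ± 0.914 TPM (-1.39 ± 0.12, adjusted p = 6.87e-07). Chn1 encodes a Rac GTPase-activating protein that acts downstream of EphA4. The exchange factor Vav3 (-1.30), the collapsin response protein Dpysl5 (-1.15), the GTPase Rras (-1.11), a substrate of plexins, and the receptor Cd44 (-0.82) also fell. The integrin Itga1 (0.87), the exchange factors Farp2 (0.81) and Tiam1 (0.51) and the GTPase Rnd1 (0.80) rose. By kind, 6 of 10 small GTPases were called (5 lower and 1 higher), 3 of 6 cytoskeletal effectors (3 lower), 3 of 8 other receptors, 5 of 16 kinases and phosphatases, 4 of 16 exchange factors and GTPase-activating proteins, 2 of 14 adaptors, 1 of 2 other neuropilin ligands and 0 of 3 sheddases and convertases by limma, when 35.3% of all genes were. From the netrin and Slit systems, listed for comparison, 5 of 19 genes were tested between the fractions: the receptor Unc5b (-0.99) and the netrin Ntn4 (-0.79) fell and Rgmb (0.46) rose.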

How the data were processed

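Transcript levels were measured by RNA-seq in 22 libraries of mpkCCD cells in 10 groups, taken from the sample labels. Per the labels' protocols, cDNA was made with the SMART-Seq HT kit, libraries with Nextera XT, and reads were paired-end. The submitters' processing notes name STAR and RSEM. The genome build and annotation are not given in the sources used here. The authors deposited TPM per gene and library, which were used as deposited, and TPM keep no depth. The table has 55415 lines, 55414 with an Ensembl mouse identifier. The 980 lines that share one of 79 symbols were summed, giving 54514 entries, and 0 pairs of libraries held identical values.

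Genes whose mean over the libraries of a fit was at least 1 TPM were modelled as log2(TPM + 1) with limma 3.58.1 in R 4.3.3, using a mean-variance trend. The tests are two-sided. Adjustment was by Benjamini-Hochberg over all genes tested, and an adjusted p under 0.05 is a call. The pseudocount understates changes of low genes. The dDAVP fit used the 6 WT libraries. The GFP fit used the 16 clone libraries with clone as covariate, and a model with 1 mean per clone and fraction gave the values within clones, the interaction and the clone differences. The labels do not say whether replicates were separate cultures, so p-values measure the spread between these libraries, which may be technical. On simulated data, 72.6% of log2 changes of 1 and 87.2% of 2 were recovered for the dDAVP fit (13190 genes), and 86.5% and 100% for the GFP fit (12862 genes).

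The members and lists were chosen with earlier results of these data known. Values, by library in groups of 3 and as ranges over larger sets, are given for the genes called with dDAVP, the 10 largest called differences between fractions with 1 sign in all 4 clones, the 6 called genes with the widest span between clones, and the highest gene of each role. Partner genes are named from a log2 difference of 0.5, at most 6 each way, except Vegfb, Chn2 and Pick1, which complete the 4 called with dDAVP. Genes named beside these, the other called genes among them, were chosen after their values were seen. Gene positions are of GRCm38, and motif windows are RefSeq's. Printed windows hold no base of a GENCODE M21 transcript that starts inside them. Alternatives changed the pseudocount, the filter, the scaling (median ratio, quantile, or a length and GC correction, available for 98.69% of entries of at least 1 TPM), the moderation, the number of detected genes as covariate, the replicate block, and the libraries or clones used.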

Additional observations from a re-analysis of the deposited data

How the results depend on the processing

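Counts of called members stayed within 1.5 times with a pseudocount of 0.1, robust moderation or no mean-variance trend. The counts in this section are given without the share of all genes called under the same setting. That share moves between settings, as values above show, so no change in a count can be read as particular to the members. With dDAVP, 3 members were called, 0 with the replicate block and 11 when detected genes were a covariate. The median was -0.32 for the members and -0.16 for all genes with the block, and -0.34 and -0.17 with the covariate. In their deviations from the group means, same-numbered WT libraries correlated at -0.208, -0.0254 and -0.109 and clone libraries at 0.0151 to 0.203. With 2 or 3 libraries a group, such values cannot decide whether same-numbered libraries were prepared together. In the GFP comparison the replicate block gave 12 in place of 13. That comparison gave 7 without a filter on low values, 8 without clone C1, 7 without C11 and 7 without C43. Within C11 the count was 0 at a mean of at least 5 TPM (Nrp2 was then not tested) and 2 with detected genes as covariate. Within C43 it was 3 at 5 TPM and 2 without a filter. Within C50 it was 5 without a filter and 14 after the length and GC correction. Between clones it was 16 after that correction, 1 without C1, 6 without C43 and 16 without C50. Leaving out 1 library at a time gave 0 to 11 with dDAVP, 10 to 17 between fractions, 2 to 5 in C1, 1 to 4 in C11, 1 to 10 in C43, 2 to 23 in C50, 0 to 20 for the interaction and 7 to 24 between clones. Where that leaves a group with 1 library, it is assumed to vary like the other groups. Of 1537 values of single genes, 1359 kept direction and side of the threshold, 79 lost and 38 gained a call, and 61 changed sign. All 61 belong to differences that were not called, and 1 of them passed under the alternative: without C50, Plxna3 was at -0.35 (adjusted p = 0.0168) in place of 0.001. For the dDAVP comparison, with median-ratio scaling Efna4 was at 0.037, Efna5 at 0.10, Plxnd1 at 0.092, Sema4b at 0.060 and Sema4d at 0.018. With quantile normalization Efna4 was at 0.072, Efna5 at 0.17, Efnb1 at 0.025, Plxnd1 at 0.11, Sema4b at 0.13 and Sema4d at 0.0063. With length and GC correction Efna5 was at 0.13, Plxna2 at 0.019, Plxnd1 at 0.0067, Sema4b at 0.15 and Sema6a at 0.018. With genes detected as covariate Sema3c was at -0.0068. Leaving out 1 library at a time, Efna5 ran from -0.26 to 0.17, Plxnd1 from -0.22 to 0.24, Sema3c from -0.089 to 0.13, Sema4b from -0.25 to 0.012 and Efna3 from -0.62 to 0.040. For the GFP comparison, with median-ratio scaling Efna4 was at 0.0084, Ephb2 at 0.027 and Plxnb1 at 0.022. With quantile normalization Efna4 was at 0.028, Ephb2 at 0.039 and Plxnb1 at 0.025. With length and GC correction Efna3 was at 0.0016, Efna4 at 0.054 and Plxnb1 at 0.10. With clone means as replicates Plxna3 was at -0.019. Without clone C1 Ephb2 was at 0.026. Without clone C11 Plxnb1 was at 0.026. Without clone C43 Ephb2 was at 0.040 and Plxnb1 at 0.079. Without clone C50 Efna5 was at -0.031, Efnb1 at -0.033, Ephb3 at -0.12, Plxna1 at -0.10 and Sema3c at -0.043. Leaving out 1 library at a time, Plxnb1 ran from -0.23 to 0.011, Ephb2 from -0.20 to 0.029, Plxna3 from -0.19 to 0.068, Epha2 from -0.0024 to 0.26, Ephb3 from -0.076 to 0.17 and Plxna1 from -0.096 to 0.16. The causes were not tested. Depth is unknown, so no floor can be given for low values such as Nrp2 in GFP-positive cells.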
